A study of Mus musculus with 3 samples.

Results

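The immediate early transcription factor genes of the AP-1, EGR and NR4A families were examined in CD8+ T cells of 3 sorted populations. The 9 genes were Jun, Junb, Jund, Fos, Fosb, Fosl2, Egr2, Egr3 and Nr4a1. They were taken by name from the probe sets that carry 1 gene symbol in the platform annotation, and all 9 were measured, each by 1 probe set, among 10191 genes. CXCR3+ innate cells, CXCR3- innate cells and naive cells were compared, and in the values below CXCR3+ and CXCR3- cells stand for the innate populations. The donors were C57BL/6 mice with a fluorescent (GFP) reporter for the chemokine receptor CXCR3, described in the labels as naive animals. Cells of spleen and lymph node were stained for CD44, CD62L and CD8 and sorted. RNA came from about 3 to 5 mice, whose age and sex were not given, and each population was represented by 1 Affymetrix array. Innate is the submitters' name for both populations set against naive cells, and the gates on CD44 and CD62L were not given in the sources used here.

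AP-1 is a dimer of basic leucine zipper proteins, in which a Jun protein pairs with a Fos protein or with another Jun protein and binds short DNA elements in many T cell genes. Immediate early genes are transcribed within minutes of stimulation without new protein synthesis, through factors that are already present in the cell, and their transcripts are short-lived. In T cells they respond to the antigen receptor: AP-1 works with NFAT on cytokine genes, EGR proteins restrain activation, and Nr4a1 transcription is widely used as a readout of antigen receptor signals. The same genes can also respond to the handling of cells during tissue dissociation and sorting.

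The sequences before the start sites of the 6 genes with the widest range of values over the arrays are shown, since elements of the kinds marked in them are bound by the factors described here or by factors that induce them. RefSeq promoter windows of assembly GRCm38.p6 were found for 8 of the 9 genes, and Egr3 was not matched. Each line below holds the 250 bases before the annotated start, 5′ to 3′ on the strand of the gene. Capitals mark matches on either strand. They mark the TATA box TATAAA, the core TGACG of the cyclic AMP response element (CRE), the EGR element GCGNGGGCG and the NF-kB element. Also marked is the pattern TGANNTCA, some forms of which Jun dimers bind. The windows lie at chr4:95052223-95052472 on the minus strand for Jun, chr8:84978749-84978998 on the minus strand for Junb, chr8:70697489-70697738 on the plus strand for Jund, chr12:85473640-85473889 on the plus strand for Fos, chr7:19310046-19310295 on the minus strand for Fosb and chr15:101266596-101266845 on the plus strand for Nr4a1.
Jun: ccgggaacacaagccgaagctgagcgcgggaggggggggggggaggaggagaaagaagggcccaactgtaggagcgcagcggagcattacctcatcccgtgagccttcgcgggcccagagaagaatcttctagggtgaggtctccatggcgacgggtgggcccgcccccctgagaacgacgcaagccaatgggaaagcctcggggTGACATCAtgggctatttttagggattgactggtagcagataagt
Junb: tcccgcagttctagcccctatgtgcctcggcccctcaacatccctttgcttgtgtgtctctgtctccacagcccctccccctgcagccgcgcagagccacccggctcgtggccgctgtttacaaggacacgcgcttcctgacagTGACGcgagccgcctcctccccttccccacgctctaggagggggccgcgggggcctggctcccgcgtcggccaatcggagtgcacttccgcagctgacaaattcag
Jund: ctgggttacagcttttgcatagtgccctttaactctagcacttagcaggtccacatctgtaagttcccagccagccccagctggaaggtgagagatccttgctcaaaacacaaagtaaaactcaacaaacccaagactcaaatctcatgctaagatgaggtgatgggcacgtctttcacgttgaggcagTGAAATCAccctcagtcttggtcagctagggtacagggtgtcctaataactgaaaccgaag
Fos: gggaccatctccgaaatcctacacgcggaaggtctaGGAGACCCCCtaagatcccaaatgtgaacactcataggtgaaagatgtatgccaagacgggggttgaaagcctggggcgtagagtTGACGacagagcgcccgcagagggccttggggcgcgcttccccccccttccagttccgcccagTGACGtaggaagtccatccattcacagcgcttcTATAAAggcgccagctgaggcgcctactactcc
Fosb: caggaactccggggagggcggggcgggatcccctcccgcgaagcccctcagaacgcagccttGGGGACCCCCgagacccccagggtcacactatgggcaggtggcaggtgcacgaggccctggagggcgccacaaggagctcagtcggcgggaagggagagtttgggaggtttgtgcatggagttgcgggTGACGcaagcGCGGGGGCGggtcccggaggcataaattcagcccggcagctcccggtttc
Nr4a1: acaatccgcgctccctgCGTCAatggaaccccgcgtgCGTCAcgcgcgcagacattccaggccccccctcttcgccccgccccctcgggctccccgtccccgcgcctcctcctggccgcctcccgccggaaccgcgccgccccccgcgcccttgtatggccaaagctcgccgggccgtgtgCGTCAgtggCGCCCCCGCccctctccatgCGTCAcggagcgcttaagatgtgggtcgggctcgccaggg

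The Jun window held TGACATCA, 45 to 38 bases before the start, which is a form of TGANNTCA. That pattern was found in 11.9% of all 32851 windows of the RefSeq table, in which alternative starts of a gene count separately. The core TGACG lay at 129 to 125 and at 66 to 62 bases before the Fos start, and a TATA box lay at 33 to 28. Fosb and Junb each held 1 core, at 60 to 56 and at 106 to 102 bases before their starts. Nr4a1 held 4, each written as CGTCA on the strand shown. Of the 5 Egr2 starts, 3 with overlapping windows held 2 cores each. At least 1 core was present in 17.8% of all windows, at least 2 in 3.90% and at least 4 in 0.137%. The TATA box was present in 12.4% of windows. EGR elements were found before Fosb, Fosl2 and Nr4a1, against 4.70% of all windows, and NF-kB elements before Fos, Fosb, Fosl2 and 1 of the 5 Egr2 starts, against 7.25%. The full CRE TGACGTCA, the 7-base AP-1 element TGANTCA and the NR4A element AAAGGTCA were in none of the windows of the 8 genes, and in 1.55%, 6.75% and 1.34% of all windows. Jund held TGAAATCA, another match to TGANNTCA, at 61 to 54 bases before its start. It lacks the TGAC with which the match of Jun begins, and its binding by Jun dimers is not known here.

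Within the windows searched, Egr2 alone held a CArG box, the element bound by serum response factor. It was present before 4 of its 5 annotated starts and in 1.47% of all windows. Some of these 4 windows overlap, so they do not stand for 4 separate boxes. The other genes searched had 1 window each, and Egr3 had none. Bases further than 250 before a start were not searched, so a box there would be missed. The 30 bases at chr10:67537787-67537816 on the plus strand are shown with the box in capitals.
Egr2: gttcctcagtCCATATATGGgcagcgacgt
These matches describe letters in a window and no site was assayed here. The patterns TGACG and TGANNTCA were added after the sequences had been read.

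Values were log2 RMA expression values as deposited. With 1 array per population there was no replicate and no test, so no difference has a replicate check, and higher and lower describe these 3 arrays alone. Levels are compared only between arrays for the same gene. A gene was counted as higher or lower where its values differed by at least 1.5-fold, or 2-fold, and the higher value reached the median of that array over genes, which was 7.63 for each innate array and 7.65 for the naive array. Jun, Junb, Jund, Fosb, Fosl2, Egr3 and Nr4a1 were at or above that median on all 3 arrays, Fos on the naive array alone and Egr2 on none. Equal values were frequent in the table, with 34.2% of probe sets the same on all 3 arrays, so a difference of 0 does not show equal expression. In these bulk samples, fewer cells that express a gene and less RNA per cell cannot be told apart.

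The cell type labels were examined before the results. Of 10 CD8+ T cell markers, 7 were measured, and Cd8a read 10.14 in CXCR3+, 9.77 in CXCR3- and 10.43 in naive cells, and Cd8b1 11.31 in CXCR3+, 11.29 in CXCR3- and 11.54 in naive cells. Cd3g, a chain of the CD3 complex of the antigen receptor, read 10.72 in CXCR3+, 10.17 in CXCR3- and 11.10 in naive cells. In CXCR3- innate minus naive, 6 of the 7 markers were below 0 and 1 was equal, and the median was -0.30 (-0.19 after quantile normalization). Cd3g at -0.93 and Cd8a at -0.66 were past 1.5-fold, and Cd3d was at -0.52 and Cd3e at -0.30. Over all genes 36.3% were below 0 and 1.6% were 1.5-fold lower. At means of 8 to 9, 9 to 10, 10 to 11 and 11 to 12, 2 of 2, 0 of 1, 2 of 2 and 2 of 2 markers were below 0. Of all genes at those levels, 57.3%, 74.7%, 76.4% and 63.6% were. These 4 CD3 and CD8 genes lie in the same direction as Jun, Jund and Fos given below. The difference of Cd3g is larger than that of any of the 9 genes. In CXCR3+ innate minus naive, 4 markers were below 0, 2 above and 1 equal, against 34.2%, 20.7% and 45% of all genes. The median was -0.24 and none was past 1.5-fold. None of 7 B cell or 4 erythroid markers had a value in the table, 4 of 9 myeloid markers did, with mean log2 values of 7.55 in CXCR3+, 7.58 in CXCR3- and 7.51 in naive cells, and 3 of 6 NK cell markers did, with means of 7.61 in CXCR3+, 7.64 in CXCR3- and 7.32 in naive cells. Of these 3, Eomes, which memory CD8+ T cells also express, read 7.92 in CXCR3+, 7.77 in CXCR3- and 7.06 in naive cells, whereas Ncr1 and Fcgr3 were equal in CXCR3+ innate and naive cells. In CXCR3- innate minus naive Ncr1 differed by 0.24 and Fcgr3 by 0.00. The 2 measured CD4 and regulatory T cell markers averaged 7.27 in CXCR3+, 7.56 in CXCR3- and 7.41 in naive cells, and the single gamma-delta T cell marker, Sox13, read 7.75 in CXCR3+, 7.79 in CXCR3- and 7.75 in naive cells. Cd44 read 8.30 in CXCR3+, 7.88 in CXCR3- and 7.24 in naive cells, and Cxcr3 7.97 in CXCR3+, 7.82 in CXCR3- and 7.57 in naive cells. The part of other cells, and of the lower CD3 and CD8 values, in the results below was not tested.

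The Jun genes were lower on both innate arrays than on the naive array. Jun, which encodes the founding member c-Jun, read 9.22 in CXCR3+, 9.33 in CXCR3- and 9.94 in naive cells. The naive array was the highest and the innate arrays lay close together. The log2 difference of Jun was -0.72 in CXCR3+ innate minus naive, a 1.65-fold lower level, and 43 of the 10191 genes had a lower difference. It was -0.61 in CXCR3- innate minus naive, or 1.52-fold lower, just past the 1.5-fold rule. The call was lost under median centring, cyclic loess and quantile normalization, where the difference of Jun was as small as -0.43. Jun was thus the only member past 1.5-fold in either comparison with naive cells as deposited, 1 of 9, where 0.697% of all genes were 1.5-fold lower in CXCR3+ innate minus naive and 1.6% in CXCR3- innate minus naive.

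Jund, a broadly expressed Jun protein that can restrain proliferation, read 9.20 in CXCR3+, 9.12 in CXCR3- and 9.65 in naive cells. Again naive cells were the highest, and here CXCR3- innate cells were the lowest. The log2 differences from naive cells were -0.44 in CXCR3+ innate and -0.53 in CXCR3- innate cells, which are 1.36-fold and 1.44-fold lower. Junb, a Jun protein that opposes c-Jun on some genes, read 10.35 in CXCR3+, 10.36 in CXCR3- and 10.60 in naive cells, a pattern of the same shape but smaller, with log2 differences from naive cells of -0.25 in CXCR3+ and -0.24 in CXCR3- cells, or -0.16 and -0.05 after quantile normalization. No Jun gene was higher in an innate population than in naive cells under any of the 5 scaling and summary alternatives, and the smallest difference was that of Junb in CXCR3- innate minus naive after quantile normalization, at -0.05. Each Jun gene had 1 probe set, so the alternatives of the brightest probe set and of an offset could not change these signs.

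**Figure D1:**
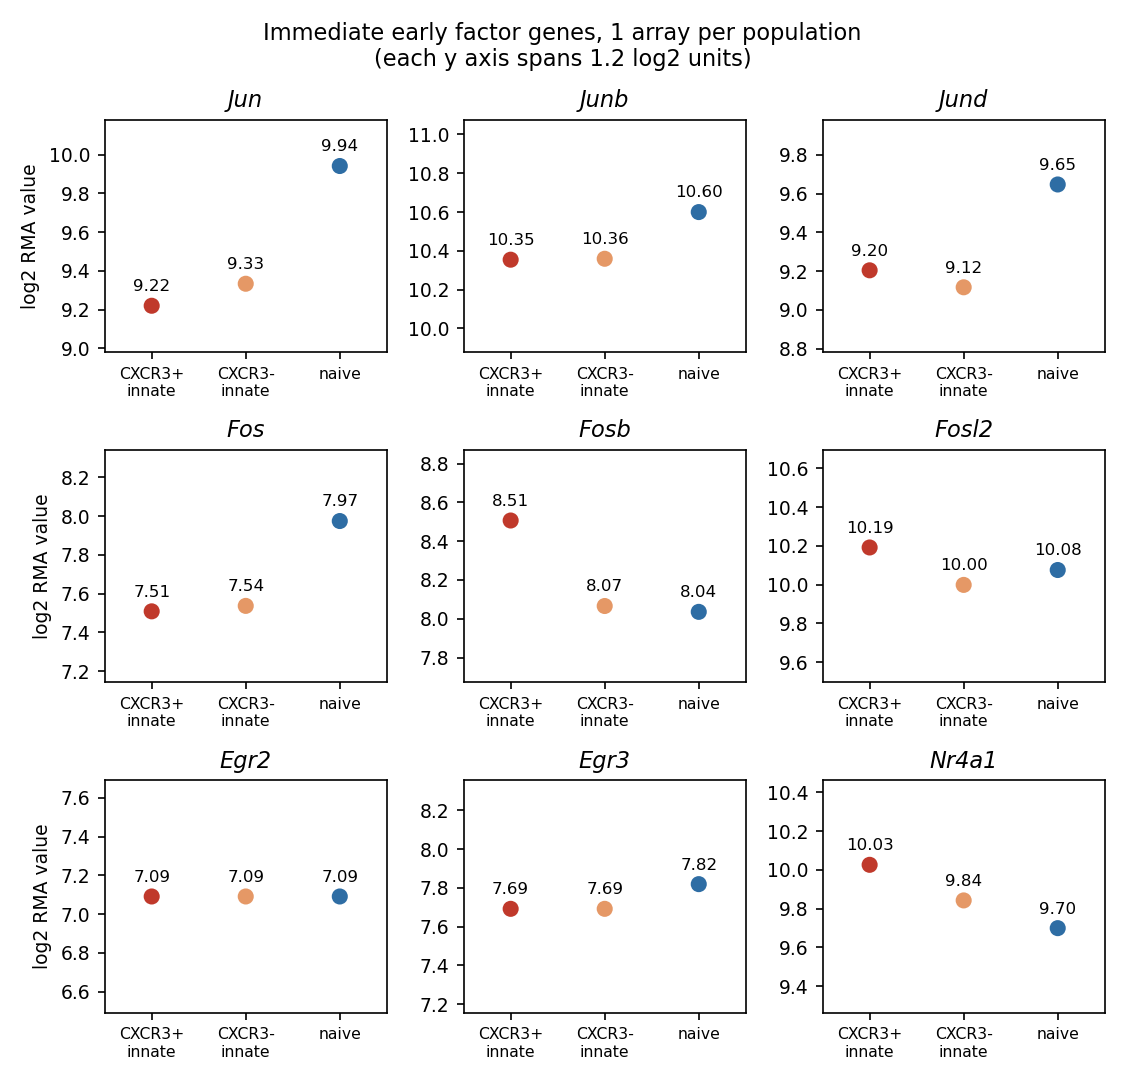
Deposited log2 RMA values of the 9 genes, 1 panel per gene and 1 point per array, with CXCR3+ innate at the left, CXCR3- innate in the middle and naive at the right. The y axes have different origins and the same span of 1.2 log2 units. Jun, Junb, Jund and Fos are highest in naive cells, Fosb and Nr4a1 are highest in CXCR3+ innate cells, and Egr2 has 1 value, 7.09, on all arrays.

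The Fos genes did not share 1 pattern. Fos, the partner of Jun in the classical AP-1 dimer, read 7.51 in CXCR3+, 7.54 in CXCR3- and 7.97 in naive cells. It followed the Jun genes, with log2 differences from naive cells of -0.47 in CXCR3+ and -0.44 in CXCR3- cells, or 1.38-fold and 1.35-fold lower, but both innate values lay below the median of their arrays. Fosb, a Fos protein that also exists as a truncated splice form, read 8.51 in CXCR3+, 8.07 in CXCR3- and 8.04 in naive cells. It was high in CXCR3+ innate cells alone, 0.47 above naive on the log2 scale or 1.39-fold, whereas CXCR3- innate and naive cells differed by 0.03, or 0.09 after quantile normalization. Of all genes, 96 had a larger difference than Fosb in CXCR3+ innate minus naive. Fosl2, which encodes FRA-2, read 10.19 in CXCR3+, 9.998 in CXCR3- and 10.08 in naive cells, and its log2 differences from naive cells were 0.12 in CXCR3+ and -0.08 in CXCR3- cells. After quantile normalization the first was 0.18 and the second took the other sign, at 0.11.

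EGR genes showed small differences or none. Egr3 read 7.69 in CXCR3+, 7.69 in CXCR3- and 7.82 in naive cells, equal on both innate arrays, with a log2 difference of -0.13 from naive cells. Egr2 read 7.09 on all 3 arrays, below the array medians, so these arrays give no comparison for it. Both encode zinc finger proteins that NFAT induces after antigen receptor signals. Nr4a1, the orphan nuclear receptor NUR77, read 10.03 in CXCR3+, 9.84 in CXCR3- and 9.70 in naive cells. Here the order was the opposite of that of Jun, with CXCR3+ innate cells the highest and naive cells the lowest. Its log2 differences from naive cells were 0.33, or 1.25-fold, in CXCR3+ innate and 0.14, or 1.10-fold, in CXCR3- innate cells, and the second was 0.35 after quantile normalization.

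Signs were divided over the 9 genes. In CXCR3+ innate minus naive, 5 members were below 0, 3 above and 1 equal, and the corresponding shares of all genes were 34.2%, 20.7% and 45%. In CXCR3- innate minus naive, 6 members were below 0, 2 above and 1 equal, against 36.3%, 21.6% and 42.1% of all genes. These shares varied with level. At a mean of 9 to 10, 66.4% of genes were below 0 in CXCR3+ innate minus naive and 74.7% in CXCR3- innate minus naive, and 2 of 3 members in each. At 10 to 11 the shares were 66.2% and 76.4%, and 1 of 2 and 2 of 2 members were below 0. At 7 to 8 they were 23.8% and 23.9%, and 2 of 3 members were below 0 in each. The median difference of the members was -0.13 in each comparison with naive cells, set by Egr3, and that of all genes was 0.00. After quantile normalization the members' median was -0.10 in CXCR3+ innate minus naive and -0.05 in CXCR3- innate minus naive, where Junb set it. No member was 2-fold apart, as were 0.236% of all genes in CXCR3+ innate minus naive and 0.245% in CXCR3- innate minus naive. None was 1.5-fold higher, as were 0.5% of all genes in CXCR3+ innate minus naive and 0.0981% in CXCR3- innate minus naive. Both comparisons share the naive array, so a value that is high on that array lowers both differences of a gene.

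**Figure D2:**
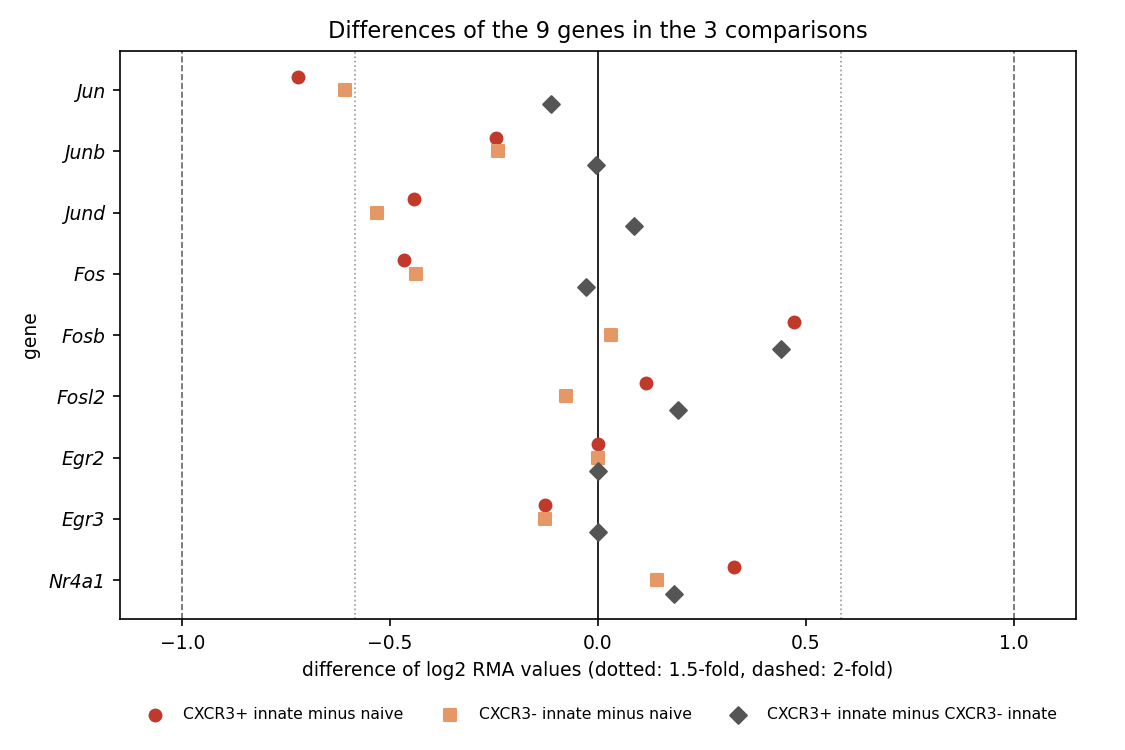
Differences of log2 RMA values (x axis) for the 9 genes (y axis), with circles for CXCR3+ innate minus naive, squares for CXCR3- innate minus naive and diamonds for CXCR3+ innate minus CXCR3- innate. Dotted lines stand at 1.5-fold and dashed lines at 2-fold. Jun lies past the dotted line in both comparisons with naive cells, at -0.72 and -0.61, and Fosb has the highest value among the circles and among the diamonds, at 0.47 and 0.44.

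The gap between members does not depend on centring, since a shift of an array moves all genes alike. In CXCR3+ innate minus naive, the difference of Fosb exceeded that of Jun by 1.19 on the log2 scale, a 2.29-fold change of their ratio, and that of Nr4a1 exceeded it by 1.05, or 2.07-fold. The same gaps in CXCR3- innate minus naive were 0.64 for Fosb and 0.75 for Nr4a1. Within the Fos genes, Fosb exceeded Fos by 0.94 in CXCR3+ innate minus naive and by 0.47 in CXCR3- innate minus naive. The members thus differed unequally, and a single direction for the group would not describe them.

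Differences on these arrays varied with level, so each member was also set beside genes of like level, a description chosen after the values were seen. Among the 613 genes with a mean of 9 to 10 over the 3 arrays, the median difference was -0.10 in CXCR3+ innate minus naive and -0.18 in CXCR3- innate minus naive. Of these genes, 8 had a lower difference than Jun in CXCR3+ innate minus naive, and 37 in CXCR3- innate minus naive. Jund had 32 genes of that band below it in CXCR3+ innate minus naive and 63 in CXCR3- innate minus naive. Nr4a1 lay at the other side, with 20 of the 613 genes above it in CXCR3+ innate minus naive and 43 in CXCR3- innate minus naive.

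Junb lay near the median of genes of its level in CXCR3- innate cells. Among the 157 genes with a mean of 10 to 11, the median difference was -0.11 in CXCR3+ innate minus naive and -0.28 in CXCR3- innate minus naive. Junb had 45 genes of the band below it in CXCR3+ innate minus naive and 91 in CXCR3- innate minus naive. Fosl2 had 26 genes above it in CXCR3+ innate minus naive and 42 in CXCR3- innate minus naive. Fos lay among 6681 genes with a mean of 7 to 8, whose median difference was 0.00, and 49 of them were below it in CXCR3+ innate minus naive and 103 in CXCR3- innate minus naive. Fosb had 25 of 2409 genes with a mean of 8 to 9 above it in CXCR3+ innate minus naive, but 314 in CXCR3- innate minus naive.

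**Figure D3:**
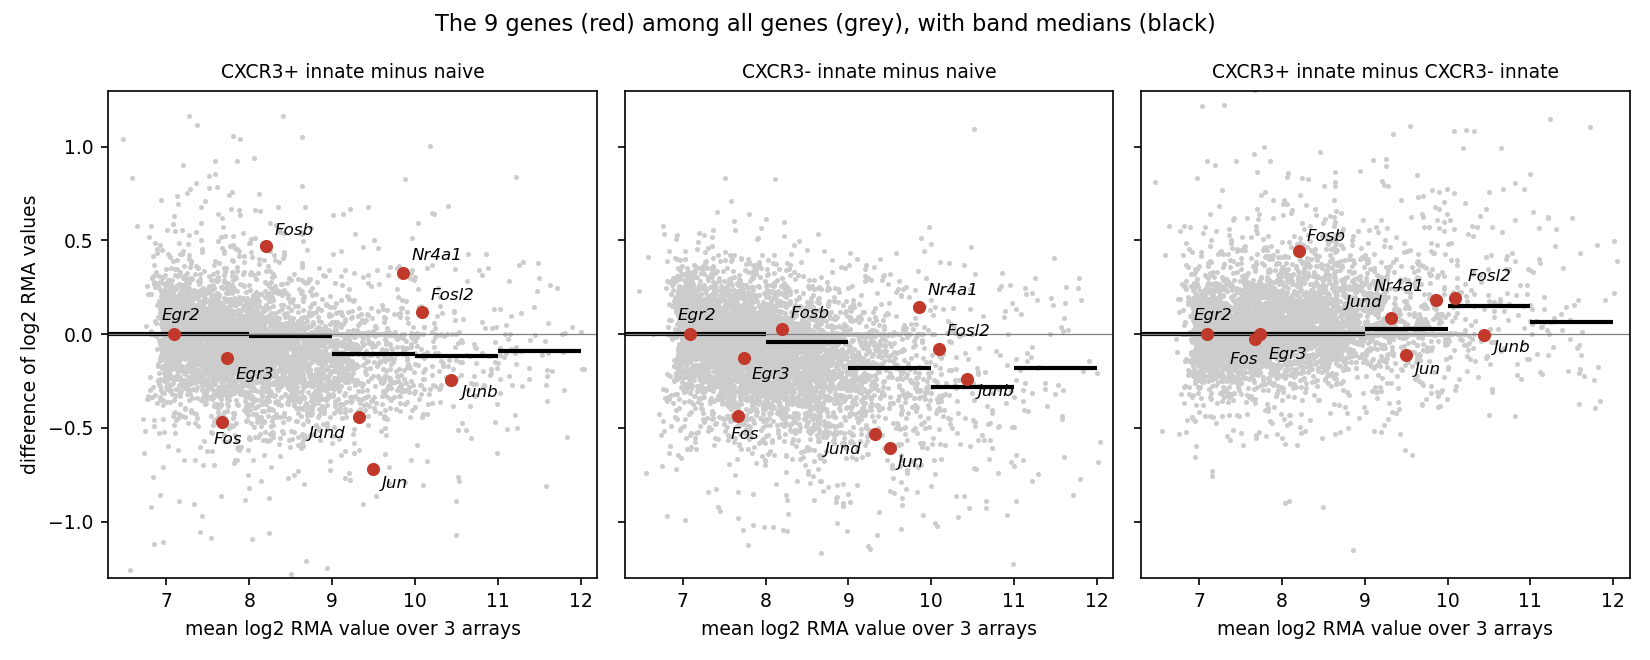
Difference of log2 RMA values (y axis) against the mean over the 3 arrays (x axis) for all genes in grey and the 9 genes in red, 1 panel per comparison, with the median of each band of 1 log2 unit in black. The y axis is limited, so a few genes with larger differences lie outside. The bands above 9 lie below 0 in both comparisons with naive cells, and Jun and Jund lie below and Nr4a1 above the median of their band.

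As deposited, Jun, Junb, Jund, Fos and Egr3 differed less between the innate populations than either population did from naive cells, and Fosl2 differed more. Fosb and Nr4a1 differed more between them than in CXCR3- innate minus naive and less than in CXCR3+ innate minus naive. Fosb had the largest difference in CXCR3+ innate minus CXCR3- innate, 0.44 on the log2 scale or 1.36-fold, and 75 of the 2409 genes of its level were above it. Fosl2 at 0.19 and Nr4a1 at 0.18 followed, and both were smaller after quantile normalization, at 0.06 and 0.04. The 3 Jun genes gave -0.11 for Jun, -0.0048 for Junb and 0.09 for Jund, and after quantile normalization -0.17 for Jun, -0.12 for Junb and 0.03 for Jund. Fos gave -0.03. Egr2 and Egr3 were equal. In all, 4 members were above 0, 3 below and 2 equal, against 28.7%, 22.3% and 49% of all genes. At a mean of 9 to 10, 55.6% of genes and 2 of 3 members were above 0, and at 10 to 11, 64.3% and 1 of 2. No member was 1.5-fold or 2-fold apart, as were 1.08% and 0.157% of all genes.

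Genes whose values followed a member most closely were looked up by the distance between values centred on their own mean, over 3 arrays and 8587 candidate genes. For Jun they were Mbd2, which encodes a protein that binds methylated DNA, at a distance of 0.0011, Pced1b at 0.0078 and the lipid kinase gene Pip4k2a at 0.014. Mbd2 read 8.69 in CXCR3+, 8.81 in CXCR3- and 9.42 in naive cells, the same steps as Jun at its own level. For Jund they were Tpt1 at 0.0057, Tmem71 at 0.014 and Ifit1bl1 at 0.014, and for Fosb the phosphodiesterase gene Pde2a at 0.015, Cd163l1 at 0.017 and the potassium channel gene Kcnj8 at 0.022. Kcnj8 read 7.18 in CXCR3+, 6.73 in CXCR3- and 6.73 in naive cells. Its values in CXCR3- and naive cells lay below the level that a probe set had to reach on some array. Kcnj8 was thus kept through the CXCR3+ innate array, where Fosb was also highest. Its likeness to Fosb therefore depends in part on the filter. Within a distance of 0.1 lay 21 genes for Jun, 119 for Jund and 15 for Fosb.

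Other genes of these families were then described. Of 8 EGR and NR4A relatives and cofactors, 6 were measured and none passed 1.5-fold. Nr4a2, which encodes NURR1, read 9.73 in CXCR3+, 9.55 in CXCR3- and 9.23 in naive cells, the same order as Nr4a1, with log2 differences from naive cells of 0.50 in CXCR3+ and 0.32 in CXCR3- cells. Nr4a3 read 9.29 in CXCR3+, 9.21 in CXCR3- and 9.20 in naive cells, so its differences from naive cells, 0.09 in CXCR3+ and 0.01 in CXCR3- cells, were smaller. Nab2, a corepressor of EGR proteins, read 8.37 in CXCR3+, 8.38 in CXCR3- and 8.43 in naive cells.

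Among 28 other basic leucine zipper genes of the AP-1 and related families, 15 were measured and none passed 1.5-fold in a comparison. The list median was 0.00 in all 3 comparisons, as it was over all genes. Atf3, a stress-induced factor that dimerizes with Jun proteins, read 7.25 in CXCR3+, 7.23 in CXCR3- and 6.90 in naive cells. Bach2, which represses effector genes and competes for AP-1 elements, read 8.88 in CXCR3+, 9.19 in CXCR3- and 9.19 in naive cells, so it was lower in CXCR3+ innate cells by 0.31 on the log2 scale, against both other populations. Xbp1, a factor of the unfolded protein response, read 8.45 in CXCR3+, 8.45 in CXCR3- and 8.79 in naive cells, and Atf7 8.52 in CXCR3+, 8.52 in CXCR3- and 8.78 in naive cells.

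Immediate early genes outside these families were measured for 38 of 44 listed. Against naive cells, CXCR3+ innate cells had 10 above 0, 18 below and 10 equal, against 20.7%, 34.2% and 45% of all genes. At means of 7 to 8, 8 to 9, 9 to 10 and 10 to 11, 2 of 11, 6 of 13, 5 of 7 and 5 of 6 were below 0. Of all genes at those levels, 23.8%, 51.8%, 66.4% and 66.2% were. In the list 1 gene was 1.5-fold higher and 1 was 1.5-fold lower, as were 0.5% and 0.697% of all genes. The list median was 0.00. Sik1, a kinase that cyclic AMP signals induce, read 10.18 in CXCR3+, 10.47 in CXCR3- and 10.96 in naive cells, lower in CXCR3+ innate than in naive cells by 0.78 on the log2 scale. Dusp5, a phosphatase that inactivates nuclear ERK, read 9.71 in CXCR3+, 8.89 in CXCR3- and 9.04 in naive cells, higher by 0.67 in CXCR3+ innate than in naive cells and by 0.82 than in CXCR3- innate cells. Sgk1, a kinase gene that serum and glucocorticoids induce, read 7.03 in CXCR3+, 6.45 in CXCR3- and 6.45 in naive cells. It was higher by 0.58 in CXCR3+ innate than in naive or in CXCR3- innate cells, just short of 1.5-fold. Its values lay below the array medians, so the rule could not count it at any size of difference. Mcl1, a survival gene, read 8.33 in CXCR3+, 8.33 in CXCR3- and 8.85 in naive cells. In CXCR3+ innate minus naive the list was divided over both signs, as were the 9 factors and all genes.

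Of the same 38 genes, 2 were above 0, 27 below and 9 equal in CXCR3- innate minus naive, with a list median of -0.12 and none past 1.5-fold. Over all genes 36.3% were below 0. The share was 23.9% at a mean of 7 to 8, 57.3% at 8 to 9, 74.7% at 9 to 10 and 76.4% at 10 to 11. At those levels 5 of 11, 9 of 13, 7 of 7 and 6 of 6 genes of the list were below 0. Cd69, an early activation antigen that retains T cells in tissue, read 10.48 in CXCR3+, 9.96 in CXCR3- and 10.49 in naive cells, lowest in CXCR3- innate cells, as was Klf6, a zinc finger factor, at 10.80 in CXCR3+, 10.59 in CXCR3- and 11.08 in naive cells. The list median was -0.02 after quantile normalization. In CXCR3+ innate minus CXCR3- innate, 24 were above 0, 5 below and 9 equal, the median was 0.10, or 0.05 after quantile normalization, and Dusp5 alone passed 1.5-fold. Over all genes 28.7% were above 0 and 22.3% below. The share above 0 was 20.9% at a mean of 7 to 8, 38.8% at 8 to 9, 55.6% at 9 to 10 and 64.3% at 10 to 11. At those levels 6 of 11, 6 of 13, 7 of 7 and 4 of 6 genes of the list were above 0. Btg2, an antiproliferative gene, differed by 0.57 in that comparison and read 9.52 in CXCR3+, 8.95 in CXCR3- and 9.34 in naive cells.

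Kinases and factors that act upstream of these genes were measured for 33 of 50 listed, and none passed 1.5-fold. Of these, 2 were above 0, 19 below and 12 equal in CXCR3+ innate minus naive, with a median of -0.06, and in CXCR3- innate minus naive 0 were above 0, 19 below and 14 equal, with a median of -0.13. After quantile normalization both medians were -0.01 when rounded. Over all genes, 20.7% were above 0 and 34.2% below in CXCR3+ innate minus naive, and 21.6% and 36.3% in CXCR3- innate minus naive. At means of 7 to 8, 8 to 9 and 9 to 10, 4 of 9, 7 of 14 and 8 of 10 listed genes were below 0 in CXCR3+ innate minus naive. Of all genes at those levels, 23.8%, 51.8% and 66.4% were. In CXCR3- innate minus naive 3 of 9, 7 of 14 and 9 of 10 were, against 23.9%, 57.3% and 74.7%. Rela, the p65 subunit of NF-kB, read 9.37 in CXCR3+, 9.01 in CXCR3- and 9.54 in naive cells. Sos1, which activates RAS, read 7.33 in CXCR3+, 7.56 in CXCR3- and 7.81 in naive cells, and Mef2d, a factor that acts at the Jun promoter in other cells, 9.61 in CXCR3+, 9.70 in CXCR3- and 9.94 in naive cells. In CXCR3+ innate minus CXCR3- innate, 9 were above 0, 9 below and 15 equal, against 28.7%, 22.3% and 49% of all genes.

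T cell genes known as targets of these factors went in both directions. Of 26 listed, 16 were measured. Against naive cells, 2 were 1.5-fold higher in CXCR3+ innate cells and 1 was lower, where 0.5% and 0.697% of all genes were. In CXCR3- innate minus naive 1 was higher and 2 lower, against 0.0981% and 1.6% of all genes. In CXCR3+ innate minus CXCR3- innate 2 were higher and 0 lower, against 1.08% past 1.5-fold in either direction. Xcl1, a chemokine gene of activated CD8+ T cells, read 8.92 in CXCR3+, 8.18 in CXCR3- and 7.58 in naive cells, and at 1.34 in CXCR3+ innate minus naive it was the 1 gene of the list past 2-fold, where 0.236% of all genes were. Id2, an inhibitor of E proteins, read 9.08 in CXCR3+, 9.04 in CXCR3- and 9.99 in naive cells, the lowest differences of the list, at -0.91 in CXCR3+ and -0.95 in CXCR3- cells. Fasl, a death ligand that EGR proteins induce, read 8.10 in CXCR3+, 7.48 in CXCR3- and 7.18 in naive cells. Ccl4, a chemokine, read 8.63 in CXCR3+, 8.37 in CXCR3- and 8.07 in naive cells. Ccnd2, encoding cyclin D2, read 9.54 in CXCR3+, 9.10 in CXCR3- and 9.77 in naive cells, with a difference of -0.67 in CXCR3- innate minus naive.

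Heat shock and related genes, which cell handling can induce, were measured for 10 of 20 listed. CXCR3+ innate minus naive gave 2 above 0, 5 below and 3 equal, against 20.7%, 34.2% and 45% of all genes, and the median was -0.02. The counts were the same in CXCR3- innate minus naive, against 21.6%, 36.3% and 42.1% of all genes, and the median was -0.03. Hspa5 read 8.56 in CXCR3+, 8.26 in CXCR3- and 8.70 in naive cells, Hspd1 7.56 in CXCR3+, 7.39 in CXCR3- and 7.68 in naive cells, and Hsp90aa1 7.93 in CXCR3+, 7.93 in CXCR3- and 8.004 in naive cells. Txnip, the redox regulator, read 9.65 in CXCR3+, 9.31 in CXCR3- and 9.98 in naive cells. At -0.67 in CXCR3- innate minus naive it was the only gene of the list past 1.5-fold. Over all genes 1.6% were 1.5-fold lower there. The part of cell handling in the values of the 9 factors was not tested.

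**Figure D4:**
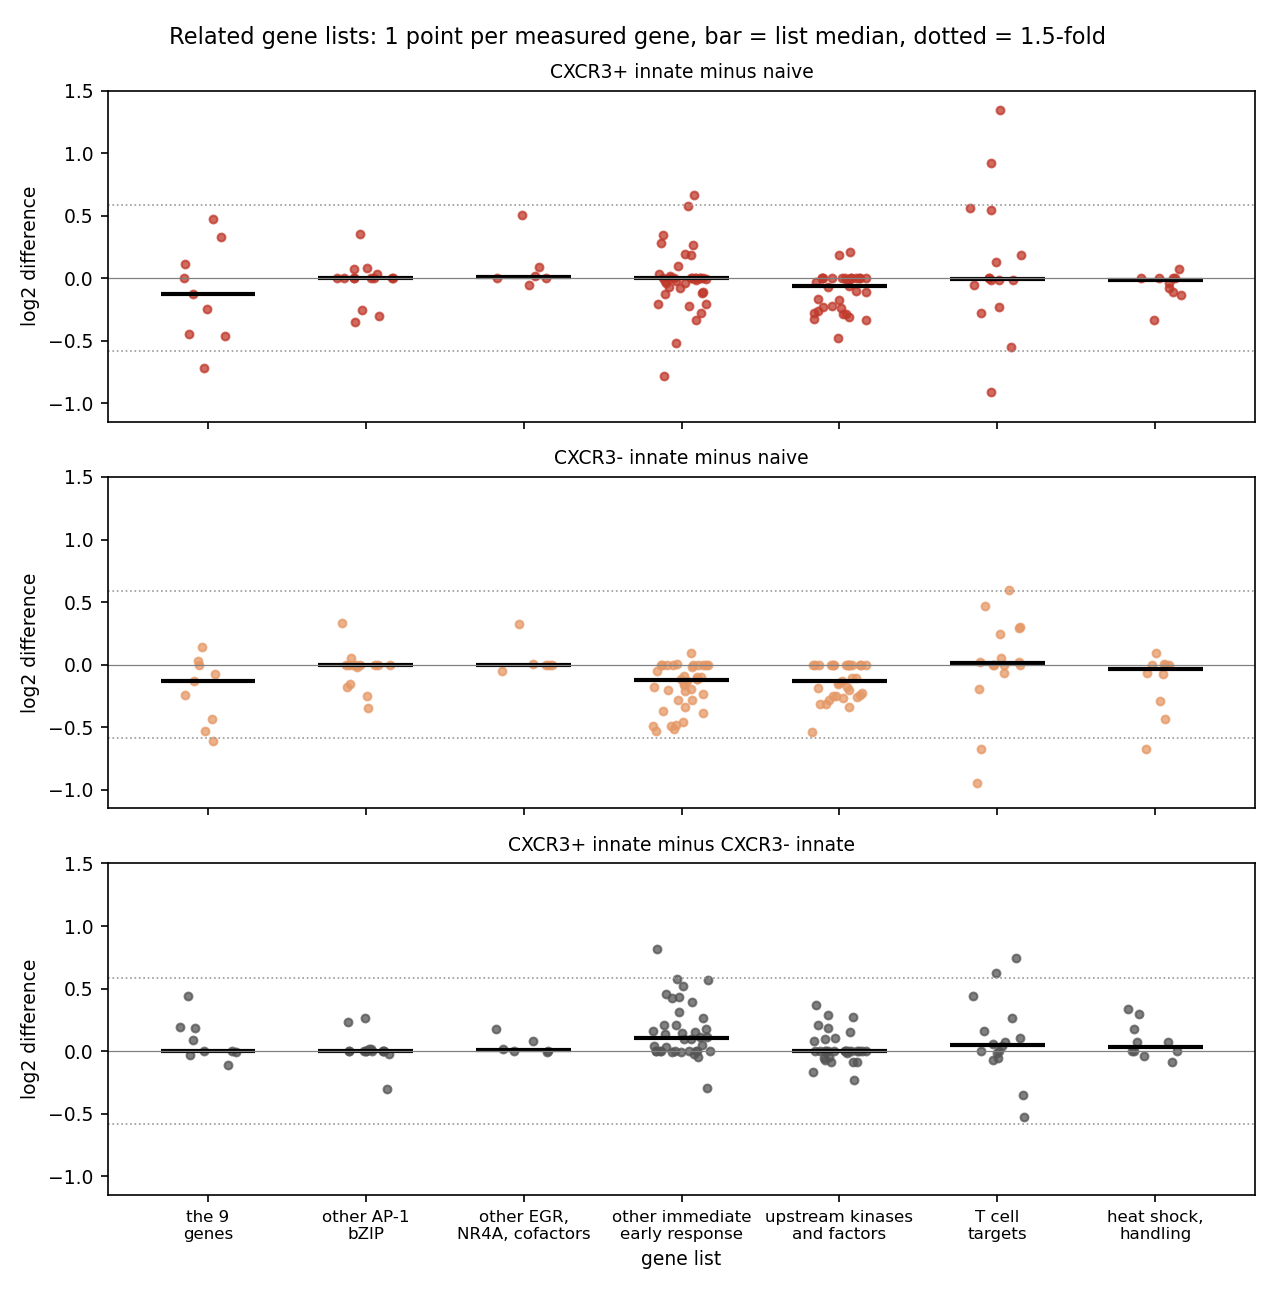
Differences of log2 RMA values (y axis) of every measured gene in 7 lists (x axis), 1 panel per comparison, with the list median as a black bar and dotted lines at 1.5-fold. Horizontal scatter within a list carries no meaning. The 38 other immediate early genes lie mostly below 0 in CXCR3- innate minus naive, with a median of -0.12, and mostly above 0 between the innate populations, with a median of 0.10 as deposited. Means of 7 to 8, 8 to 9, 9 to 10 and 10 to 11 hold 11, 13, 7 and 6 of the 38 genes. Of all genes at those levels, 23.9%, 57.3%, 74.7% and 76.4% lie below 0 in the first of these comparisons. In the second, 20.9%, 38.8%, 55.6% and 64.3% lie above 0.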

How the data were processed

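Gene expression was measured in 3 samples, 1 Affymetrix array for each population. The authors deposited log2 values which per the submitters' processing notes came from Affymetrix Expression Console and its RMA method (version not given in the sources used here). This method subtracts background, quantile-normalizes the arrays and fits each probe set by median polish. The table held 12417 probe sets, each with a highest value of at least 7.00, so genes below that level were not analysed here. A probe set that reached it on some arrays alone was kept through the arrays where it was high. Of these, 10576 had 1 gene symbol, 1108 several and 733 none, in the platform annotation. Probe sets of a gene were averaged, which gave 10191 genes. The number of arrays limits the precision.

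Differences of log2 values were computed for 3 comparisons, with rules of 1.5-fold and 2-fold and no test. Named were all 9 genes, up to 4 genes with the largest differences in each related list and comparison, and the 3 genes most like each of the 3 members with the widest range. The members and lists were chosen with earlier results of these data known. Promoter sequences and gene names came from RefSeq tables of GRCm38.p6, and the array's genome build was not given in the sources used here. How often the size rules would call an unchanged gene on these arrays was not tested, since there were no replicates. Alternatives were quantile normalization, cyclic loess, median centring, an offset of 16 on the linear scale, the brightest probe set, other filters and other thresholds. Python 3.11.15, numpy 2.4.6, pandas 2.3.3, matplotlib 3.10.9, R 4.3.3 and limma 3.58.1 were used.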

Additional observations from a re-analysis of the deposited data

Results flagged for a closer look

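Fosl2 lay on opposite sides of 0 in the comparisons with naive cells, at 0.12 in CXCR3+ innate minus naive and -0.08 in CXCR3- innate minus naive, a gap of 0.19 on the log2 scale. With 1 array per population the gap was not tested. After quantile normalization both differences were above 0.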

How the results depend on the processing

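Of 246 recomputed values, 223 kept within 1.5 times the main count or within 0.1 of the main log2 value, and 23 moved. Some of the 223 could not move. Each member had 1 probe set, so the brightest probe set left its values unchanged. A count of 0 members past 2-fold stays 0 at 3-fold. The count of members past 1.5-fold in CXCR3- innate minus naive was 0 with each array centred on its median, after cyclic loess and with quantile normalization, because Jun then fell short of the threshold. The count past 2-fold became 1 at a threshold of 1.5-fold in each comparison with naive cells. Over all genes, 24 passed 2-fold, 122 passed 1.5-fold and 5 passed 3-fold in CXCR3+ innate minus naive. The counts at the same thresholds were 25, 173 and 4 in CXCR3- innate minus naive, and 16, 110 and 2 in CXCR3+ innate minus CXCR3- innate. Quantile normalization left 11 genes past 2-fold and 109 past 1.5-fold in CXCR3- innate minus naive. The share of higher calls there moved to 18.2% at 2-fold and 18.3% at 1.5-fold, against 8.0% and 5.78% as deposited, and at 1.5-fold in CXCR3+ innate minus naive to 53.5%, against 41.8%. The cause was not tested. The largest moves of a member were in CXCR3- innate minus naive after quantile normalization, where Nr4a1 was at 0.35, Junb at -0.05, Fosl2 at 0.11 and Jun at -0.43. Signs of members that differed from 0 as deposited were kept under the 5 scaling and summary alternatives, except that of Fosl2 in CXCR3- innate minus naive. The brightest probe set and the offset could not change these signs, so they do not count as checks of them. No replicate could be left out, since each population had 1 array. No paired analysis was possible because each population had 1 array and the result comes from no test.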
